A study of Mus musculus with 6 samples.

Results

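Oncostatin M and interleukin-6 (IL-6) family signalling was followed through 7 genes chosen by name, with earlier results of these data known. They are the ligand genes Il6 and Lif, the receptor genes Osmr, Lifr and Il6st, the transcription factor Stat3 and its feedback inhibitor Socs3. These are 7 of 23998 gene symbols counted in single cells of mouse kidney. Smart-seq2, in which each well of a plate holds 1 cell and transcripts are read along their whole length, was used for sequencing. Cells came from healthy mice and from mice at day 2 or day 10 of unilateral ureteric obstruction (UUO), a tied ureter that injures the tubules and scars the kidney. Each of 6 plates held cells of 1 mouse per condition, sorted from digested tissue through an endothelia gate and a mesenchyme gate. The labels give no strain, age or sex, and no antibody or reporter for the gates. The count tables list an eGFP entry without saying which promoter drives it.

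The well layouts add a number from 1 to 4, read here as the identity of the mouse within its condition. Reads were summed over the wells of a gate, condition and number, so that every group had n = 4 sums of 61 to 127 wells and 19382742 to 56326210 reads. Of 2292 sorted wells, 2235 held at least 1000 genes and 20000 reads and were kept. On every plate a condition filled the same columns of wells, so that condition and plate column cannot be told apart. Levels are CPM, read counts scaled to a common library size, adjusted by the trimmed mean of M-values (TMM). Changes are given on the log2 scale ± SE. In sums over a gate, more cells of an expressing type and more RNA per cell cannot be told apart. The 8 endothelial markers summed to 15269 to 23984 CPM in the endothelia gate and to 139 to 685 CPM in the mesenchyme gate. The 5 mural markers summed to 4761 to 8213 CPM in the mesenchyme gate and to 229 to 669 CPM in the endothelia gate. Clusters were made without the genes under study, and 2028 wells fell into a cluster of the class that their gate names.

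Cytokines of this family signal through shared receptor chains. Il6st encodes gp130, the chain common to the family, which pairs with the oncostatin M receptor chain encoded by Osmr or the leukaemia inhibitory factor receptor chain encoded by Lifr. The paired receptor activates Janus kinases, which phosphorylate STAT3, and STAT3 switches on Socs3, whose product blocks the receptor in turn. In the injured kidney these cytokines are known as products of leukocytes and stromal cells.

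The promoters of 4 members are shown because 3 of the genes moved together in the mesenchyme gate and the fourth is the classical feedback target. Each is the 250 bases before the RefSeq start site (GRCm38.p6), read 5′ to 3′ on the strand of the gene. The Socs3 and Osmr windows lie inside the gene spans given below, which come from another annotation (GENCODE). Distances to the start therefore hold for the RefSeq start only. Capitals mark the letters TTCNNNGAA, the symmetric STAT half-sites with a 3-base spacer, searched on both strands.

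Socs3, chr11:117969367-117969616, minus strand: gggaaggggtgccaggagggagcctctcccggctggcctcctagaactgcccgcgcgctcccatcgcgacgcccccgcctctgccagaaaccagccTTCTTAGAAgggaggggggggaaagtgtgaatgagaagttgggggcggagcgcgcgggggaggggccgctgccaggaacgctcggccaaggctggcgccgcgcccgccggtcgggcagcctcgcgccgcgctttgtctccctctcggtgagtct
Osmr, chr15:6874314-6874563, minus strand: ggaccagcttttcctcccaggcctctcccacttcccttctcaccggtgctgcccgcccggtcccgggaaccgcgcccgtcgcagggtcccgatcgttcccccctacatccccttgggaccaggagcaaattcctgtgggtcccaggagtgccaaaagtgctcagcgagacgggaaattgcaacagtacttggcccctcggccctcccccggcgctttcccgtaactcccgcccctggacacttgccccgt
Il6st, chr13:112463820-112464069, plus strand: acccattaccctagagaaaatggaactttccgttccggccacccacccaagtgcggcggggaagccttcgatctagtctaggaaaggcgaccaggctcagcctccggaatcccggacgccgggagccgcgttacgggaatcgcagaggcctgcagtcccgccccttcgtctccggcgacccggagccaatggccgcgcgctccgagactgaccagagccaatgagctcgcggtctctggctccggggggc
Stat3, chr11:100939541-100939790, minus strand: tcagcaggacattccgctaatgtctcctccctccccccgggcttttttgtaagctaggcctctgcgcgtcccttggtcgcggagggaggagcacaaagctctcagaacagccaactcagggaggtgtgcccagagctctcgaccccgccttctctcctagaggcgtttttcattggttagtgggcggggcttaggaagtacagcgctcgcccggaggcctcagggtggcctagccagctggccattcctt

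All 7 members matched the RefSeq table, with 8 windows in total. The motif stood in 1 of these 8 windows, that of Socs3, where it reads TTCTTAGAA and begins 154 bases before the start. The same letters stood in 7.02% of 32851 promoter windows of that length. A match is a description of these letters, and no match says only that they are not in this window.

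In the mesenchyme gate, the receptor genes Osmr and Il6st and the transducer gene Stat3 rose by day 2 and were still above healthy at day 10. In the endothelia gate, Stat3 rose at day 2, and no member passed the test at day 10. Lifr was higher in the endothelia gate than in the mesenchyme gate of the healthy kidney. The plot of levels by gate and condition shows each sum.

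**Figure D1:**
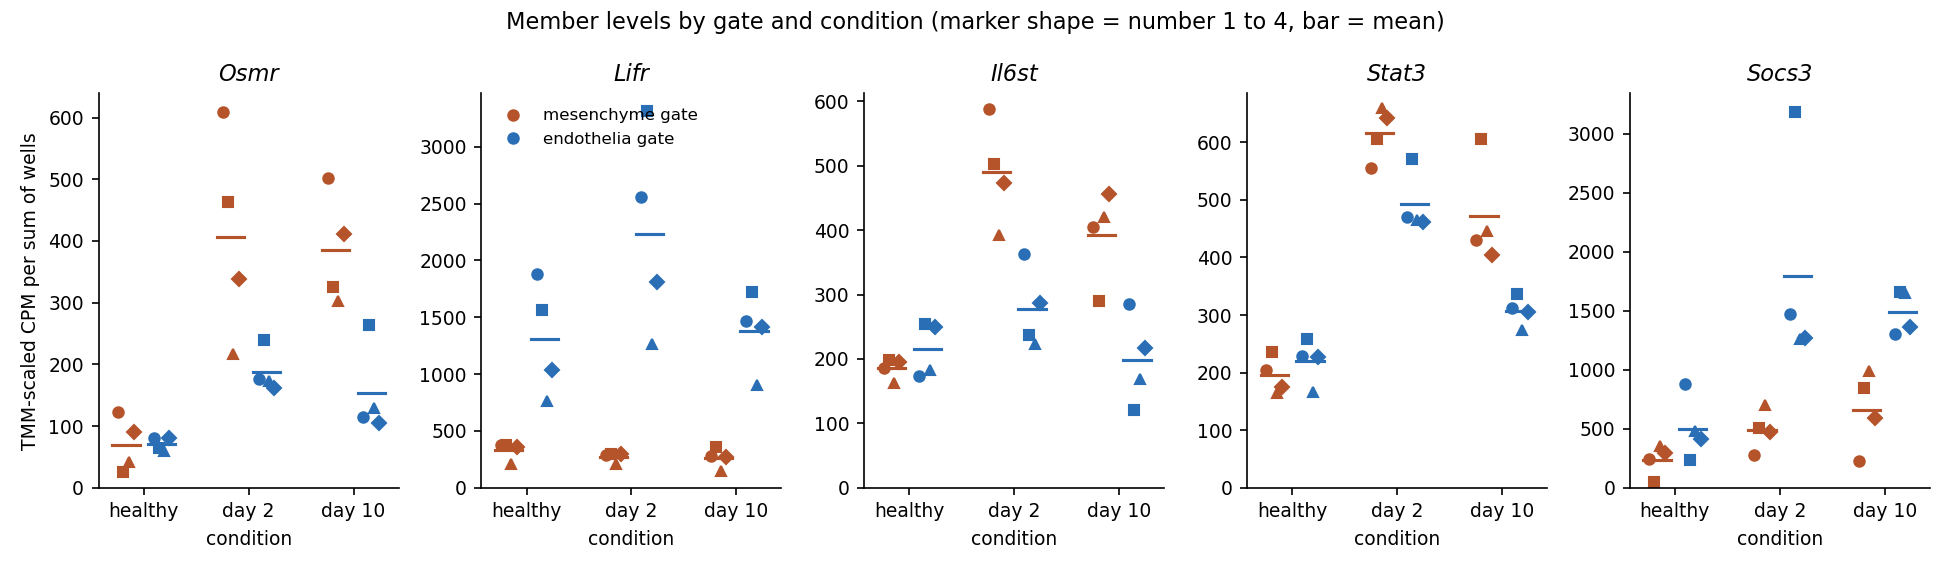
TMM-scaled CPM (vertical axes, one scale per gene) of 5 members in every sum, by condition and gate, with marker shapes for numbers 1 to 4 and a bar for the mean of 4 sums. In the mesenchyme gate, all 4 sums of Osmr, Il6st and Stat3 at day 2 and at day 10 sit above the 4 healthy sums.

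Osmr (chromosome 15, 6813577 to 6874969, minus strand, GRCm38) encodes the chain that makes a gp130 complex respond to oncostatin M. Healthy mesenchymal sums of numbers 1 to 4 held 123, 25.8, 41.3 and 90.1 CPM. Day 2 sums held 609.7, 463, 217 and 339 CPM, and day 10 sums 502, 326, 303 and 411 CPM. The healthy sums spread widely, from 25.8 to 123 CPM, and even the highest lay below every injured sum. The rise was 2.65 ± 0.33 at day 2 (adjusted p = 0.00518, edgeR) and 2.61 ± 0.32 at day 10 (adjusted p = 0.00519), with means of 70.1 ± 44.9, 407 ± 168 and 385.5 ± 90.5 CPM (SD, n = 4). The call was lost without number 1 (2.79, adjusted p = 0.0542) or number 3 (2.72, adjusted p = 0.0633) at day 2, and without number 3 at day 10 (2.53, adjusted p = 0.0665).

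Endothelial Osmr had lower means after injury than mesenchymal Osmr, with overlap between the gates at day 2. Healthy sums held 80.0, 64.0, 60.3 and 81.1 CPM, day 2 sums 176, 239, 173 and 162 CPM, and day 10 sums 115, 264, 130.0 and 105 CPM. Neither injured group overlapped the healthy one, and the ratio of means was 2.63 at day 2 and 2.15 at day 10. The change of 1.35 ± 0.25 at day 2 and of 1.01 ± 0.25 at day 10 did not pass the test over all genes (adjusted p = 0.0754 and 0.128, edgeR). The day 2 change passed without a filter on low counts (adjusted p = 0.0204, edgeR), with sums per plate (adjusted p = 0.0453, edgeR) and by DESeq2 (adjusted p = 7.65e-05). That at day 10 passed by DESeq2 (adjusted p = 0.00630). Sums per plate, here and below, count plates that share a number as separate samples. Where a number marks 1 mouse, they overstate the number of mice, and their p-values are no support. At day 10 the sum of number 2 stood apart at 264 CPM.

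Counted per cell, more wells of both gates held Osmr after injury. Each well was thinned to 100000 reads, which left out 6 to 16 shallower wells per gate and condition. In the mesenchyme gate, 19.9 ± 6.81% of healthy wells, 70.7 ± 9.38% of day 2 wells and 71.2 ± 4.85% of day 10 wells then held an Osmr read (SD, n = 4 numbers). Endothelial shares were 19.9 ± 3.71%, 49.1 ± 5.20% and 46.0 ± 7.60%. The unthinned shares in healthy wells were 28.0% in the mesenchyme gate and 24.5% in the endothelia gate. As a background level, 7.59% to 7.91% of thinned mesenchyme wells held a read of the endothelial gene Pecam1, and 12 control wells held 0 Osmr reads.

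Il6st (chromosome 13, 112464070 to 112510086, plus strand) encodes gp130 and was present at like levels in both healthy gates. Its mesenchymal level was 186, 198, 163 and 196 CPM in healthy sums, 589, 503, 393 and 474 CPM at day 2 and 405, 289.5, 421 and 456 CPM at day 10. Neither injured group overlapped the healthy sums, and number 2 was the lowest at day 10. The rise was 1.39 ± 0.16 at day 2 (adjusted p = 0.00417, edgeR) and 1.08 ± 0.16 at day 10 (adjusted p = 0.0117). Without number 1 the day 2 rise was 1.30 (adjusted p = 0.0721). At day 10 it was 1.06, 0.99 and 1.03 without number 1, 3 or 4 (adjusted p = 0.0872, 0.0922 and 0.117).

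Endothelial Il6st sums were 173, 254, 183 and 249 CPM in healthy mice, 363, 237, 223 and 287 CPM at day 2 and 286, 121, 169 and 217 CPM at day 10. The 3 groups overlapped. The difference from healthy was 0.32 ± 0.23 at day 2 and −0.18 ± 0.24 at day 10 (adjusted p = 0.807 at day 2, edgeR), and its sign at day 10 turned without number 2 (0.14).

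Wells that held both chains of an oncostatin M receptor followed Osmr. After thinning, 13.1 ± 5.81% of healthy mesenchyme wells held reads of Osmr and Il6st together, against 59.6 ± 8.09% at day 2 and 55.7 ± 5.54% at day 10. Among endothelial wells the shares were 11.3 ± 3.05%, 31.8 ± 4.92% and 25.6 ± 3.92%. The pair Lifr and Il6st moved less, from 42.3% of healthy mesenchyme wells to 54.1% and 46.0%, and from 46.4% of healthy endothelial wells to 50.4% and 48.4%. These shares were not tested.

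Lifr (chromosome 15, 7090614 to 7197489, plus strand) encodes the receptor chain for leukaemia inhibitory factor. Healthy endothelial sums held 1879, 1564, 766 and 1037 CPM, and healthy mesenchymal sums of the same mice 373, 379, 208 and 361 CPM. Every endothelial sum lay above every mesenchymal sum. The mesenchyme gate was lower by −2.07 ± 0.18 (adjusted p = 5.74e-06, edgeR, mouse as block). Socs3 was the other member past the threshold between the healthy gates, so that 2 of 7 members were lower in the mesenchyme gate, against 11.5% of the 16116 genes tested. The Socs3 difference of −1.38 ± 0.40 (adjusted p = 0.0255) was lost without the block (−1.26, adjusted p = 0.0958) and without number 1, 2 or 4 (−1.17, −1.03 and −1.66, adjusted p = 0.0982, 0.122 and 0.0505). Of 18 immediate early and dissociation stress genes, 10 were lower and 4 higher in the mesenchyme gate of these healthy mice, with a median of −0.58, and their part in the Socs3 difference was not tested.

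After obstruction, endothelial Lifr sums were 2561, 3311, 1265 and 1809.8 CPM at day 2 and 1464, 1723, 904 and 1414 CPM at day 10. The day 2 sums were higher than the healthy sums of the same number in 4 of 4 numbers and the day 10 sums lower than those of day 2 in 4 of 4, yet the groups overlapped. The day 2 difference was 0.76 ± 0.15 (adjusted p = 0.112, edgeR) and that between day 10 and day 2 was −0.64 ± 0.15 (adjusted p = 0.289). The former passed without a filter on low counts (adjusted p = 0.0458), with sums per plate (adjusted p = 0.0186) and by DESeq2 (adjusted p = 0.000250), and the latter by DESeq2 (adjusted p = 0.00379). Mesenchymal Lifr sums were 289, 299, 208 and 301 CPM at day 2 and 280.4, 359, 152 and 270.3 CPM at day 10. They were lower than the healthy sum of the same number in 4 of 4 numbers at both times, with changes of −0.24 ± 0.13 and −0.33 ± 0.13 (adjusted p = 0.591 and 0.287). Number 3 was the lowest of its group in both gates and all 3 conditions.

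The endothelial Lifr sums mix cell classes that stood far apart. Glomerular endothelial-like wells, called by Ehd3 and other glomerular markers, held 1884 CPM of pooled healthy reads, against 524 CPM in peritubular capillary endothelial-like wells and 679 CPM in arterial endothelial-like wells. A comparison within classes was added after these levels had been seen, over sums of at least 10 wells. In glomerular endothelial-like wells Lifr stood at 2101, 2064, 1063 and 1665 CPM in healthy mice and at 3703, 3721, 2851 and 4068 CPM at day 2. The groups did not overlap, and the rise was 1.10 ± 0.14 (adjusted p = 0.0424, edgeR, where 0.0257% of 11670 genes were called higher).

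In peritubular capillary endothelial-like wells the order was the opposite. Lifr stood at 529, 445 and 591 CPM in healthy sums of numbers 1, 3 and 4, and at 232, 144 and 205 CPM at day 2. These groups did not overlap either, but the change of −1.45 ± 0.33 did not pass the test (adjusted p = 0.712, edgeR, n = 3 sums per group, with 0 of 10031 genes called and 375 at an unadjusted p under 0.05). The difference in change between the 2 classes was 2.63 ± 0.28 (adjusted p = 0.0264, where 2 of 11953 genes, or 0.0167%, were called). It is drawn in the plot of Lifr by class.

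**Figure D2:**
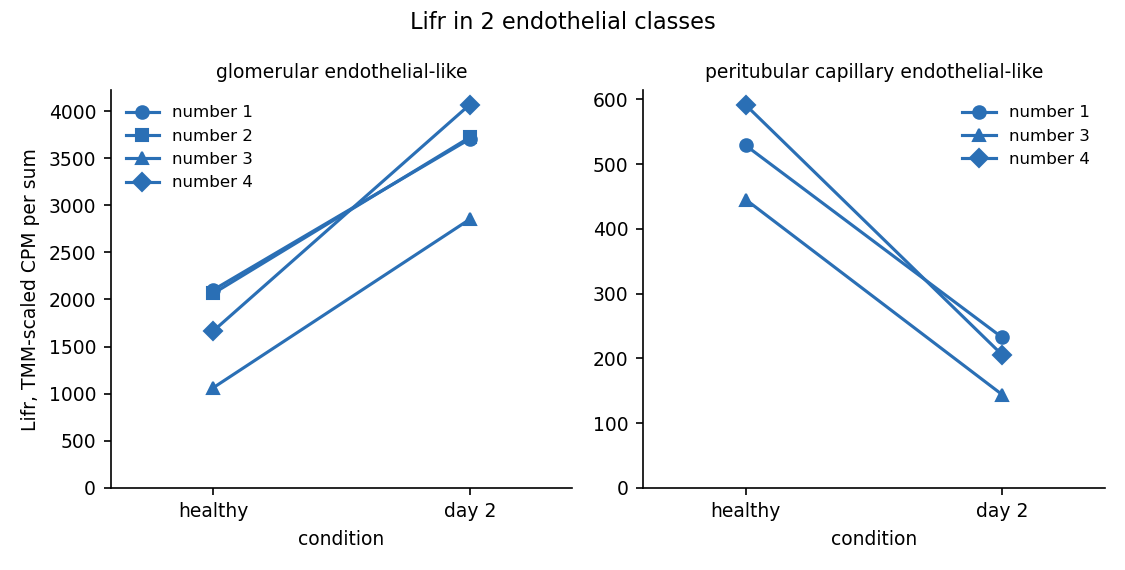
Lifr in TMM-scaled CPM per sum in glomerular endothelial-like wells (left, 4 numbers) and peritubular capillary endothelial-like wells (right, 3 numbers with at least 10 wells), on vertical axes of different scale, with a line joining sums of the same number in healthy and day 2 mice. All 4 glomerular lines go up, from between 1063 and 2101 CPM to between 2851 and 4068 CPM, and all 3 peritubular lines go down.

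Both Lifr calls within classes rest on every mouse and on the block. The glomerular rise kept its size when a number was left out (1.20, 1.18, 0.99 and 1.03 without number 1, 2, 3 or 4) but not its call (adjusted p = 0.133, 0.146, 0.321 and 0.722). The difference between classes was 2.95, 2.40 and 2.53 without number 1, 3 or 4 (adjusted p = 0.127, 0.387 and 0.604). Without the block, the glomerular rise was 1.06 (adjusted p = 0.210) and the difference 2.57 (adjusted p = 0.0781). At day 10, 61 wells were glomerular endothelial-like and 24 peritubular capillary endothelial-like, against 159 and 64 in healthy mice, and pooled Lifr was 2437 and 99.2 CPM. Of the 24 peritubular wells, 17 were of number 4, so that their pooled level rests largely on that number.

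Stat3 (chromosome 11, 100885098 to 100939540, minus strand) encodes the transcription factor that carries the signal to the nucleus. The gene overlaps Stat5a in the annotation, and whether reads were counted by strand is not given in the sources used here. Mesenchymal sums held 205, 236, 164 and 175 CPM in healthy mice, 555, 605, 659.9 and 641 CPM at day 2 and 431, 605, 446 and 404 CPM at day 10. Neither injured group overlapped the healthy one, and the spread within each group was small beside the step between them. The rise was 1.67 ± 0.14 at day 2 (adjusted p = 0.00303, edgeR) and 1.27 ± 0.14 at day 10 (adjusted p = 0.00331), and both calls held with any one number left out. From day 2 to day 10 the difference was −0.41 ± 0.14 (adjusted p = 0.448).

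Endothelial Stat3 sums were 229.6, 259, 167 and 228 CPM in healthy mice, 469.7, 572, 465 and 462 CPM at day 2 and 313, 337, 274 and 305 CPM at day 10. All 3 groups stood apart without overlap, with day 10 between the others. The day 2 rise was 1.17 ± 0.13 (adjusted p = 0.0141, edgeR), and without number 1, 3 or 4 it was 1.21, 1.07 and 1.22 (adjusted p = 0.0943, 0.135 and 0.218). The day 10 difference from healthy was 0.49 ± 0.13 (adjusted p = 0.158) and that from day 2 was −0.68 ± 0.13 (adjusted p = 0.19). Both passed with sums per plate (adjusted p = 0.0498 and 0.0218) and by DESeq2 (adjusted p = 0.0149 and 0.000160).

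Socs3 (chromosome 11, 117966079 to 117970047, minus strand) encodes the inhibitor that binds gp130 and stops the kinases. Endothelial sums held 882, 233, 483 and 411 CPM in healthy mice, 1469.7, 3186, 1261 and 1269 CPM at day 2 and 1303, 1659, 1648 and 1366 CPM at day 10. Every injured sum lay above every healthy sum, and number 2 went from the lowest healthy sum to the highest at day 2. The ratio of means was 3.58 at day 2 and 2.97 at day 10. The healthy sums were widely spread, and the change of 1.81 ± 0.40 at day 2 and of 1.60 ± 0.39 at day 10 did not pass the test (adjusted p = 0.148 and 0.127, edgeR). Both passed without a filter on low counts (adjusted p = 0.0250 and 0.0266) and with sums per plate (adjusted p = 0.0293 and 0.0245), but neither passed by DESeq2. The make-up of the gate differed at day 10. Healthy, day 2 and day 10 wells numbered 3, 10 and 104 in the angiogenic endothelial-like class and 22, 16 and 97 in the cluster led by Esm1. In the glomerular endothelial-like class they numbered 159, 167 and 61. The cluster led by Esm1 was left unnamed. It had the glomerular markers Ehd3, Smad6 and Pi16, the peritubular Cd300lg and Gpihbp1, the arterial Gja5 and Efnb2 and the angiogenic Esm1 and Cxcr4. The glomerular endothelial-like class therefore need not hold all glomerular wells. The 5 angiogenic markers summed to 127 to 1525 CPM in healthy, 128 to 1116 CPM in day 2 and 1910 to 3352 CPM in day 10 endothelial sums, with 0 of the 5 at 0. Pooled Socs3 at day 10 was 1599 CPM in the angiogenic endothelial-like wells and 1963 CPM in the cluster led by Esm1. The part of this shift in the day 10 differences of the endothelia gate was not tested.

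Mesenchymal Socs3 sums were 248, 47.1, 355 and 295 CPM in healthy mice, 275, 505, 701 and 473 CPM at day 2 and 226, 844, 988 and 589.6 CPM at day 10. Number 1 hardly differed between conditions, and the groups overlapped through it. The difference from healthy was 1.02 ± 0.51 at day 2 and 1.42 ± 0.52 at day 10 (adjusted p = 0.545 and 0.245, edgeR). Socs3 is also an immediate early gene that cell dissociation can raise. The 18 immediate early and dissociation stress genes summed to 21568 to 36483, 25774 to 39254 and 14162 to 37073 CPM in healthy, day 2 and day 10 mesenchymal sums, and to 22969 to 30169, 25486 to 31090 and 11903 to 28182 CPM in the endothelial ones. Of these 18 genes, 0 passed edgeR's test against healthy in either gate, and 1 to 4 per comparison had an unadjusted p under 0.05. Their part in the Socs3 levels was not tested.

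The ligand genes Il6 and Lif were rare. Il6 (chromosome 5, 30013114 to 30019981, plus strand) stood at 1.95, 10.0, 0 and 18.6 CPM in healthy mesenchymal sums, at 28.3, 12.03, 23.5 and 40.3 CPM at day 2 and at 17.7, 0.143, 31.1 and 2.64 CPM at day 10. Its endothelial level was 0.875, 8.99, 0 and 2.55 CPM, then 47.6, 19.6, 1.80 and 32.4 CPM, then 124, 17.6, 18.8 and 33.9 CPM. Only the endothelial day 10 sums stood clear of the healthy ones. A single endothelial well held 5470 of the 9834 Il6 reads of that group, which is 55.6%. The difference from healthy in the endothelia gate was 3.28 ± 1.14 at day 2 and 4.84 ± 1.28 at day 10 (adjusted p = 0.441 and 0.151, edgeR). At day 10 it passed without number 2 (6.42, adjusted p = 0.0494, edgeR), without a filter on low counts (adjusted p = 0.0467, edgeR) and by DESeq2 (adjusted p = 2.25e-06). Il6 would not have passed the filter on low counts by its healthy sums alone, so these calls add no support.

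Counted by wells with at least 10 reads, Il6 was found in 4, 17 and 16 mesenchymal wells and in 5, 25 and 23 endothelial wells of healthy, day 2 and day 10 mice. Among endothelial wells, 2 of 107, 12 of 79 and 13 of 78 arterial endothelial-like wells held it, and 2 of 159, 11 of 167 and 2 of 61 glomerular endothelial-like wells. Among mesenchymal wells the fibroblast-like ones gave 1 of 11, 4 of 12 and 5 of 64, and the vascular smooth muscle-like wells 3 of 186, 7 of 163 and 5 of 117. These counts of wells were not tested.

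Lif (chromosome 11, 4257557 to 4272514, plus strand), which encodes the ligand of the Lifr chain, stayed at or below 12.6 CPM in every sum. Mesenchymal sums were 0.123, 0.0476, 4.82 and 0.117 CPM in healthy mice, 0, 0.599, 2.26 and 3.48 CPM at day 2 and 12.6, 0.190, 2.04 and 3.13 CPM at day 10. Endothelial sums were 0.118, 0, 0 and 0.120 CPM, then 0.124, 0.484, 0 and 0.216 CPM, then 2.22, 0.265, 0.509 and 3.02 CPM. Only the endothelial day 10 sums stood above their healthy sums without overlap. Wells with at least 10 reads numbered 1, 3 and 9 in the mesenchyme gate and 0, 0 and 5 in the endothelia gate, and 5 of the 9 mesenchymal wells at day 10 were fibroblast-like. The plot of wells with ligand reads sets Il6 and Lif beside Il11.

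**Figure D3:**
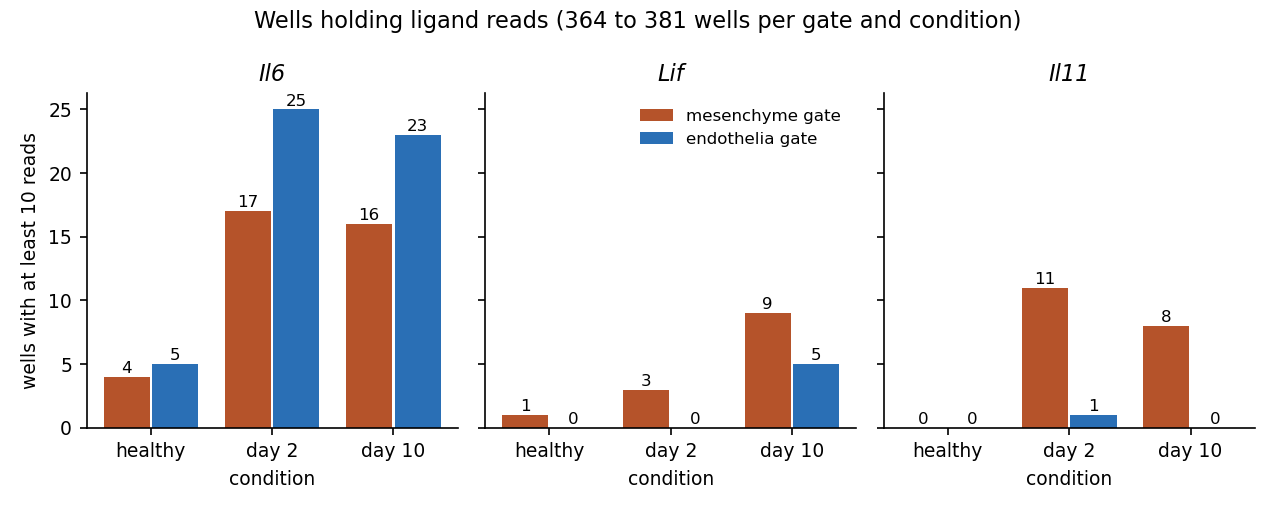
Number of wells with at least 10 reads (vertical axis) of Il6, Lif and Il11 by condition and gate, with the count above each bar. Il6 goes from 4 and 5 wells in healthy mice to 17 and 25 wells at day 2, and Il11 appears in 11 mesenchymal wells at day 2 and 8 at day 10.

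The ligand that gives Osmr its name, oncostatin M, was almost missing from these cells. Osm held 0 reads in the healthy sums of both gates, 1 and 38 reads in the mesenchyme gate and 32 and 31 reads in the endothelia gate at day 2 and day 10. At day 10 the reads lay in 3 mesenchymal wells and 1 endothelial well, so that the pooled levels of 0.325 and 0.190 CPM rest on those wells and no fold is given. Leukocytes, a known source of oncostatin M, were not sorted. Wells with at least 10 reads of each of 3 or more immune markers made up at most 1.05% of any gate and condition. A cluster of 26 wells led by Apod, 21 of them in the endothelia gate, had the immune markers Lyz2 and Csf1r. It also had the endothelial markers Kdr, Emcn and Flt1 and was left unnamed.

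Read against all genes, the members were called more often in the mesenchyme gate than the background. The members were chosen with earlier results of these data known, so that these shares, here and below, describe them and test nothing about the list. At day 2, 3 of 7 members passed in the higher direction, against 0.329% of 14582 genes. The members' median change was 1.58 against 0.012 over all genes, and this median is the value of the rare Il6 (1.58 ± 1.62), which was not called. At day 10, again 3 of 7 members passed, against 0.665% of genes, with a median of 1.27 against 0.038. Groups without overlap above healthy were found for 3 of 7 members at either time, against 2.93% of genes at day 2 and 4.16% at day 10. Between day 10 and day 2, edgeR called 0 of 7 members, with 1 below 0.05 before adjustment and 0 by DESeq2, against 0.0480% of genes called in either direction.

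Among endothelial sums, 1 of 7 members passed in the higher direction at day 2, against 0.114% of 14026 genes. At day 10, edgeR called 0 of 7, against 0.649% of genes in either direction. Before adjustment 5 members were below 0.05, Il6 and Lif among them, as were 1525 of the 14026 genes. DESeq2 called 3, namely Il6, Osmr and Stat3, and the share of all genes that it called is not given here. Groups above healthy without overlap were found for 3 of 7 members at day 2 (Osmr, Stat3 and Socs3), against 2.28% of genes. At day 10 these 3 stood above healthy, against 3.43% of genes. Il6 and Lif did too, but neither would have passed the filter on low counts by its healthy sums alone. Both are therefore left out of this comparison, and Lif had to differ. The counts of 5 and 3 members at day 10 lean on them in the same way. Between day 10 and day 2, edgeR called 0 of 7 members (0.0143% of genes), with 2 below 0.05 before adjustment, and DESeq2 called 2, Lifr and Stat3, as lower. Stat3 was the member whose day 10 sums lay below those of day 2 without overlap, against 2.16% of genes.

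Whether the gates differed in their response was tested as a difference between changes, with the mouse as block. The changes of Osmr and Il6st were 1.29 ± 0.50 and 1.02 ± 0.23 higher in the mesenchyme gate at day 2, and 1.66 ± 0.50 and 1.22 ± 0.23 at day 10 (adjusted p = 0.9, 0.355, 0.346 and 0.122, edgeR). Stat3 differed by 0.77 ± 0.19 at day 10 (adjusted p = 0.23), and Lifr by −1.01 ± 0.25 at day 2 (adjusted p = 0.488), while Il6, rare in both gates, differed by −4.50 ± 1.71 at day 10 (adjusted p = 0.481). Thus edgeR called 0 of 7 members at either time, with 4 each time below 0.05 before adjustment, Il6 among those of day 10. Over all 16116 genes it called 0% at day 2, where 875 genes were below 0.05 before adjustment, and 0.0186% at day 10. DESeq2 called Il6st and Lifr at day 2 and 4 members at day 10, among them Osmr, Il6st and Stat3. The share of all genes that DESeq2 called is not given here. The tools thus differ on whether the members responded differently in the gates.

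**Figure D4:**
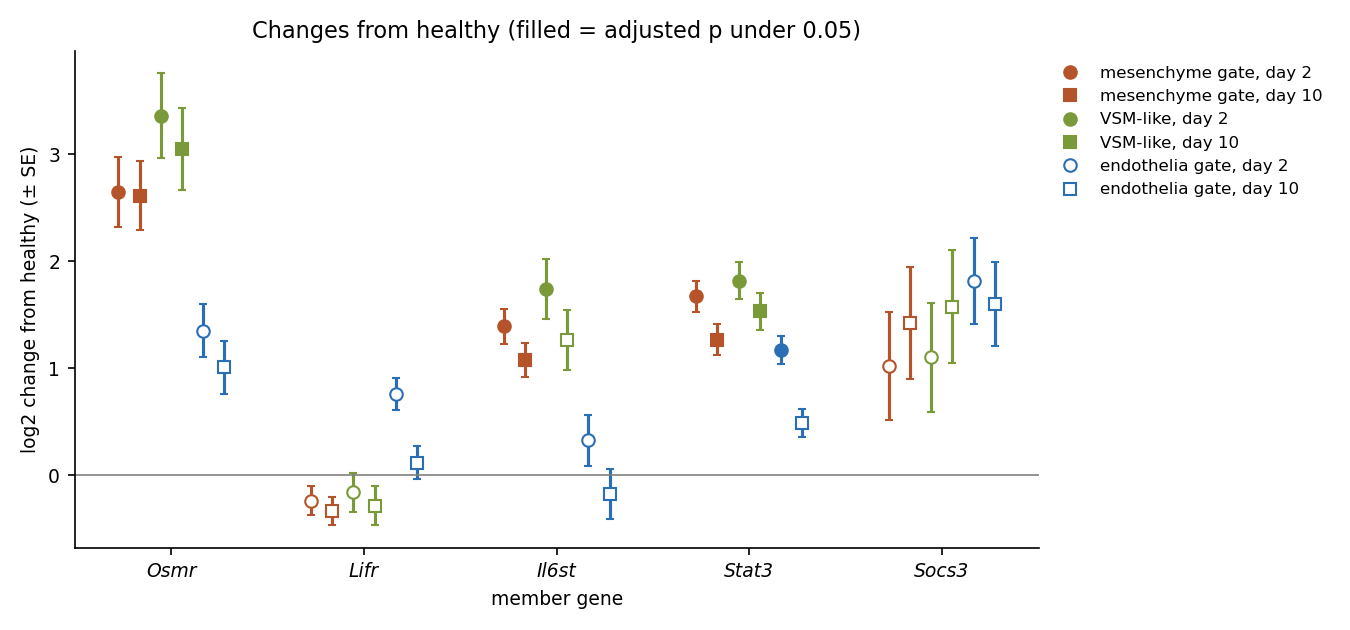
Log2 change from healthy with its SE (vertical axis) for 5 members in the mesenchyme gate, in its vascular smooth muscle-like wells and in the endothelia gate, at day 2 (circles) and day 10 (squares), filled where the adjusted p was under 0.05. Osmr has the highest points, at 2.65 and 2.61 in the mesenchyme gate and 3.36 and 3.05 in the vascular smooth muscle-like wells.

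The vascular smooth muscle-like wells, the most numerous class of the mesenchyme gate, allowed the members to be followed within 1 cell class. They numbered 186, 163 and 117 in healthy, day 2 and day 10 mice. Most healthy ones lay in one cluster (170 healthy wells, 1 of them from the endothelia gate) and most injured ones in another (136 and 109 wells). Both clusters were called by smooth muscle markers. Osmr stood at 19.8, 43.7, 38.4 and 55.2 CPM in healthy sums, at 643.8, 516, 216 and 291 CPM at day 2 and at 352, 295, 311 and 340.5 CPM at day 10. The lowest injured sum, at 216 CPM, stood far above the highest healthy one. The rise was 3.36 ± 0.40 at day 2 (adjusted p = 0.00264, edgeR) and 3.05 ± 0.39 at day 10 (adjusted p = 0.00406).

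In the same wells Stat3 stood at 220.1, 218, 168 and 184 CPM in healthy sums, at 676, 627, 796 and 690.1 CPM at day 2 and at 431, 670.0, 661 and 543 CPM at day 10, again without overlap. It rose by 1.82 ± 0.17 (adjusted p = 0.000606, edgeR) and 1.53 ± 0.17 (adjusted p = 0.00223). Il6st stood at 145.0, 278, 169 and 155 CPM, then 888, 583, 466 and 563 CPM, then 387, 346, 440.3 and 600.2 CPM. Its day 2 rise of 1.74 ± 0.28 (adjusted p = 0.0138) was lost without number 1, 3 or 4 (1.43, 1.83 and 1.71, adjusted p = 0.0983, 0.0885 and 0.0950). Its day 10 difference of 1.26 ± 0.28 (adjusted p = 0.0836) passed without number 2 (1.59, adjusted p = 0.0495), without the block (1.25, adjusted p = 0.0422), without a filter on low counts (1.24, adjusted p = 0.0310), with sums per plate (1.39, adjusted p = 0.00773) and by DESeq2 (1.27, adjusted p = 0.000240).

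Of the 6 members tested in these wells, 3 were called higher at day 2 and 2 at day 10, where 0.755% and 0.611% of 11786 genes were called higher. Lifr differed from healthy by −0.16 ± 0.18 and −0.29 ± 0.18 there, and Socs3 differed from healthy by 1.58 ± 0.53 at day 10 (adjusted p = 0.291, edgeR).

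**Figure D5:**
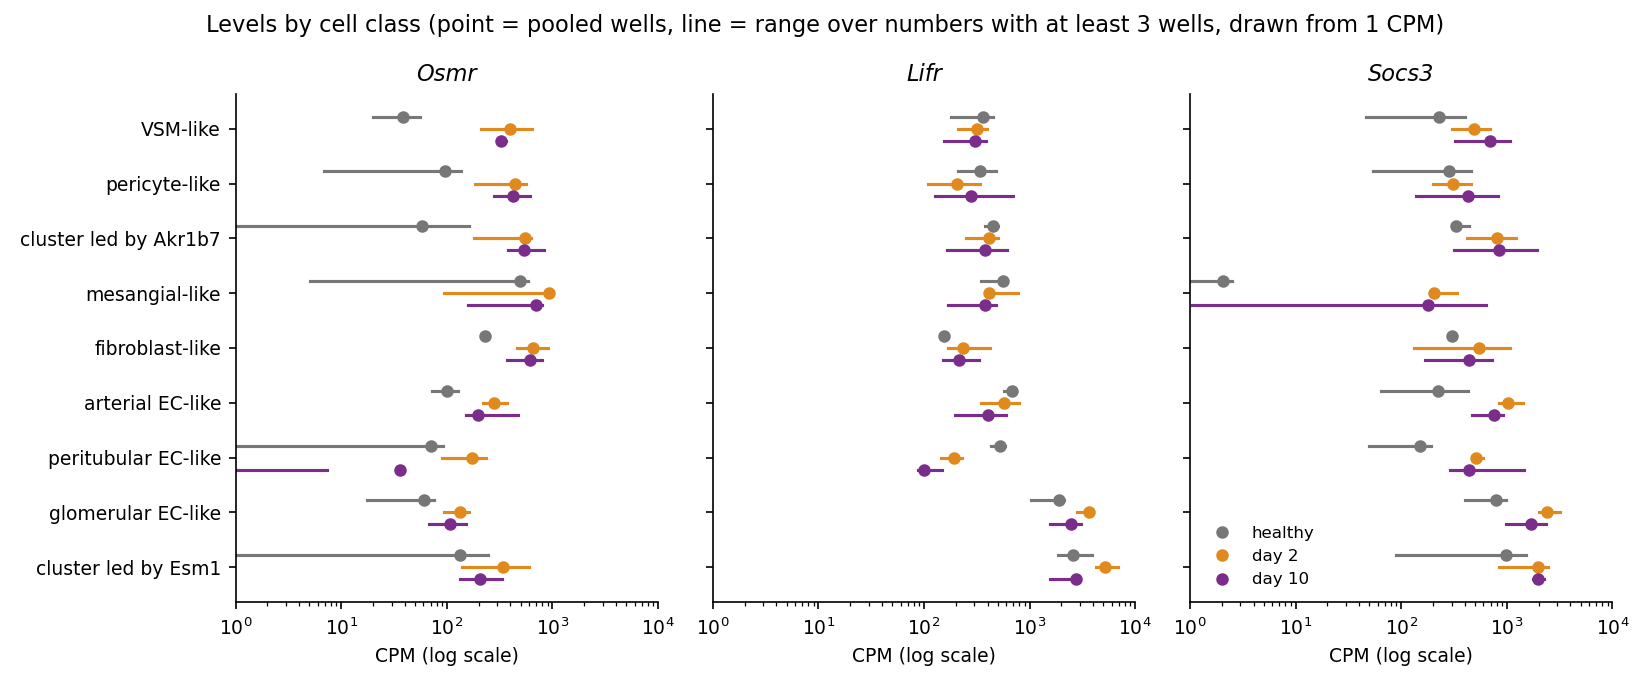
CPM on a log axis of Osmr, Lifr and Socs3 by cell class, as a point for the pooled wells of each condition and a line for the range over numbers with at least 3 wells, drawn from 1 CPM; a point can lie outside its line where wells of sparser numbers count in the pool. Osmr points of all 5 mesenchymal classes lie further right at day 2 than in healthy mice, and Lifr lies furthest right in the glomerular endothelial-like wells and the cluster led by Esm1.

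Other classes are given as pooled reads of all their wells. Healthy Osmr was 95.4 CPM in pericyte-like, 229 CPM in fibroblast-like and 491 CPM in mesangial-like wells, and 57.8 CPM in a cluster led by Akr1b7, a gene of renin-producing cells. At day 2 it was 446, 647, 920.2 and 552 CPM, and at day 10 423, 609, 699 and 542 CPM in the same order. All 4 classes were thus higher at both times, and mesangial-like wells, few in number, held most Osmr throughout. In pericyte-like wells the day 2 difference of Osmr was 2.48 ± 0.71 and that of Stat3 2.12 ± 0.42, neither past the test (adjusted p = 1 and 0.513, edgeR).

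Among endothelial classes, pooled Osmr in healthy, day 2 and day 10 wells was 99.5, 278 and 198 CPM in arterial, 70.1, 173 and 36.2 CPM in peritubular capillary and 60.4, 133 and 106 CPM in glomerular endothelial-like wells. The peritubular day 10 value rests on 24 wells, 17 of them of number 4. Among the classes just named, pooled Socs3 was highest in glomerular endothelial-like wells, at 789, 2405 and 1701 CPM. At day 10 the cluster led by Esm1 stood above all of them. The day 2 difference of Socs3 in glomerular endothelial-like wells was 1.74 ± 0.30 (adjusted p = 0.122, edgeR), which passed without the block (1.72, adjusted p = 0.0397). In arterial endothelial-like wells it was 1.84 ± 0.31 (adjusted p = 0.332). In mesangial-like wells Socs3 went from 2.04 CPM in healthy mice to 202 and 178 CPM, with a read in 4 of 18, 5 of 14 and 7 of 30 thinned wells, so that the pooled levels rest on few wells. Pooled Il6st there was 373, 833 and 453 CPM.

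Levels of different genes can be compared per kilobase of exon. In the healthy mesenchyme gate the order was Socs3 (81.7 ± 46.2 CPM per kb), Lifr (30.6 ± 7.59), Stat3 (20.5 ± 3.42), Il6st (16.7 ± 1.44), Osmr (5.79 ± 3.70), Il6 (3.15) and Lif (0.293). Stat3 and Il6st differed by about their spread, as did Stat3 and Lifr. At day 2 Osmr reached 33.6 ± 13.9 CPM per kb and Lifr 25.4 ± 4.15, within their spread, while Stat3 and Il6st stood at 64.6 ± 4.87 and 44.1 ± 7.28. In the healthy endothelia gate Socs3 (174 CPM per kb) and Lifr (122) were highest and Osmr (5.89) lowest of the 5 receptor and signalling genes. By the longest transcript in place of all exons, day 2 levels in the mesenchyme gate were 102 CPM per kb for Stat3, 74.2 for Osmr, 56.4 for Il6st and 28.4 for Lifr, so that Osmr stood above Il6st and the order of the receptor genes depends on the length used.

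Of 10 ligand genes of the family, 7 could be tested in the mesenchyme gate. The one called at day 2 was Il11, which encodes interleukin-11 and held 0 reads in healthy sums, 1015 reads at day 2 and 295 at day 10. Pooled Il11 was at least 317-fold higher at day 2 and at least 105-fold higher at day 10 than a floor of 3 reads over the healthy group, at 7.62 and 2.52 CPM. Its reads at day 2 came from pericyte-like (47.9%), fibroblast-like (38.4%) and podocyte-like wells (13.6%), and at day 10 from fibroblast-like wells (97.3%). Il11 was called at day 10 too. It passed the filter on low counts only through the injured sums, so that its calls are against a count of 0 and had to show a difference. Clcf1, Ctf1 and Cntf stayed at or below 16.6, 24.1 and 0.933 CPM in every sum.

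Of 8 receptor genes, Osmr and Il6st passed in the mesenchyme gate at both times and the other 6 did not, with a median change over the list of 0.47 at day 2 and 0.96 at day 10. Of 11 Janus kinase and STAT genes, Stat3 alone passed, at both times, with list medians of 0.53 and 0.50. Osmr, Il6st and Stat3 are members given above, so these lists add no call of their own. Over all 14582 genes, 0.329% were called higher at day 2 and 0.665% at day 10. Of 14 feedback inhibitor and phosphatase genes, Ptpn1, a phosphatase gene, rose by 1.18 ± 0.18 at day 2 (adjusted p = 0.0188, edgeR). At day 10 Ptpn1 (0.93 ± 0.18, adjusted p = 0.0307) and Ptpn2 (0.99 ± 0.19, adjusted p = 0.0320), a phosphatase gene too, rose.

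Of 24 textbook STAT3 target genes tested in the mesenchyme gate, 4 rose at day 2 (0.329% of all genes tested were called higher), and 5 rose and 1 fell at day 10 (0.665% higher and 0.658% lower), with list medians of 0.96 and 0.88. Hif1a, a hypoxia regulator, rose by 1.22 ± 0.16 at day 2 (adjusted p = 0.00755, edgeR). Timp1, a metalloproteinase inhibitor, rose by 5.81 ± 0.58 and 6.70 ± 0.60 (adjusted p = 0.00303 and 0.00130), with 47.9% of its reads at day 2 and 84.0% at day 10 in fibroblast-like wells. Serpina3n, an acute-phase protease inhibitor, was called at both times, with 83.6% and 72.1% of its reads in vascular smooth muscle-like wells. Ccnd1, the gene of cyclin D1, fell by 1.86 ± 0.31 at day 10 (adjusted p = 0.0166).

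Lcn2, which encodes the injury marker lipocalin-2, was called at both times and from day 2 to day 10 (6.13 ± 0.64, adjusted p = 0.00780, edgeR). At day 10, 99.4% of its 40356 mesenchymal reads lay in 20 wells of a cluster led by Umod, a gene of tubule cells. That cluster had Umod and Slc12a1 of the 10 listed tubule markers, and numbered 2, 1 and 20 mesenchyme wells in healthy, day 2 and day 10 mice. Wells with 3 or more of the listed markers moved the other way. They made up 22.5%, 6.28% and 2.39% of healthy, day 2 and day 10 mesenchyme wells. Among endothelia wells the shares were 22.9%, 7.34% and 0.262%. Changes of Osmr, Il6st and Stat3 in the mesenchyme gate were also taken without wells that held 3 or more tubule or immune markers. They were 2.52, 1.43 and 1.64 at day 2 and 2.54, 1.11 and 1.25 at day 10, all past the threshold. At day 10 this left out 9 wells by tubule and 3 by immune markers, fewer than the 20 of the cluster led by Umod. Part of that cluster therefore stayed in.

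Endothelial sums allowed tests of 4 ligand genes and 8 receptor genes, and none passed edgeR's test at either time. DESeq2 called Il6, Osmr and Lifr at day 2, but Il6 passed the filter on low counts only through its injured sums. Stat3 was the 1 of 11 Janus kinase and STAT genes called at day 2. Of 23 STAT3 target genes, 2 rose at day 2, against 0.114% of all genes tested. Lrg1, a secreted glycoprotein gene, went from 9.69 to 45.5 CPM in healthy sums to 324 to 459 CPM, a rise of 3.62 ± 0.48 (adjusted p = 0.0174). Serpina3n was the other, with 90.2% of its reads at day 2 in glomerular endothelial-like wells. At day 10 Serpina3n passed as higher and Bcl2l1, an anti-apoptotic gene, as lower (−0.98 ± 0.19, adjusted p = 0.0498), where 0.649% of genes were called in either direction.

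The genes whose log2 CPM over the 12 sums of a gate were most like a member's were found among all genes tested. These sums come from 3 conditions, so a correlation over them largely restates the difference between conditions. In the mesenchyme gate Osmr was most like Selt (r = 0.983), Lamp2 (0.945) and Atp11a (0.937), Stat3 like Sparcl1 (0.982), Ptpn1 (0.958) and Synm (0.955), and Il6st like Il11 (0.952). In the endothelia gate Socs3 was most like Sbno2 (0.953), Bhlhe40 (0.947) and Tmem176b (0.941), and Lifr like Sgpp1 (0.952). Among members, Osmr and Il6st correlated at 0.885 in the mesenchyme gate and at −0.057 in the endothelia gate, and Osmr and Stat3 at 0.801 and 0.844.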

How the data were processed

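The authors deposited raw read counts per gene and well for 6 plates with a layout of each plate; STAR and mm10 are named in the submitters' processing notes without a version, and the counting tool and strandedness are not given in the sources used here. The 24490 entries were added by symbol. Wells with at least 1000 genes and 20000 reads were kept and clustered with scanpy 1.11.5, leaving out 84 list genes, and clusters were named from marker genes; doublets were not called. Counts were summed per gate, condition and number, filtered with filterByExpr, scaled by TMM and tested with edgeR 4.0.16 quasi-likelihood tests (R 4.3.3), with number as block within a gate and mouse as block between gates. Deviations of same-numbered sums from their group means correlated weakly (r between 0.00610 and 0.168), and the block is justified by the plates that these sums share, per the labels. P-values were adjusted over all genes tested by Benjamini-Hochberg, threshold 0.05. Nothing in the labels says that same-numbered wells of several plates are one mouse, so p-values measure the spread between these sums. Members and lists were chosen with earlier results of these data known, and comparisons within endothelial and pericyte-like classes were added after the data had been seen. Named list genes are all members past the threshold, or the 4 of smallest p, and the ligands. Promoters are from RefSeq, GRCm38.p6. Gene positions are from GENCODE on GRCm38. The scripts were tested on simulated counts with known changes. One ligand list result is not reported here.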

Additional observations from a re-analysis of the deposited data

Results flagged for a closer look

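In 7 of 42 groups of 4 sums, the highest or lowest sum stood apart from the other 3 by Dixon's criterion, which chance meets in about 1 in 20 groups. In the endothelia gate these were Osmr at day 10 in number 2 (264 CPM), Il6 at day 10 in number 1 (124 CPM), Stat3 at day 2 in number 2 (572 CPM) and Socs3 at day 2 in number 2 (3186 CPM). In the mesenchyme gate they were Lifr in number 3 at its lowest, in healthy mice (208 CPM) and at day 2 (208 CPM), and Lif in number 3 of the healthy mice (4.82 CPM). The Il6 sum is the one in which 1 well held most of the reads of its group, and number 2, high in 3 of the endothelial groups, comes from 1 plate.

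The change of Lifr from healthy to day 2 differed between glomerular and peritubular capillary endothelial-like wells by 2.63 log2 (adjusted p = 0.0264, edgeR, n = 3 mice per condition). It rose in all 4 numbers of the former, of which number 2 is not in this test, and was lower in all 3 of the latter. The comparison was added after the levels had been seen. Its call was lost without number 1, 3 or 4 (adjusted p = 0.127, 0.387 and 0.604, edgeR) and without the block (adjusted p = 0.0781, edgeR).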

How the results depend on the processing

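Leaving out 1 number left 1 to 3 members called higher in the mesenchyme gate at day 2 and at day 10, 0 to 1 in the endothelia gate at day 2 and at day 10, and 1 to 2 members lower in the mesenchyme than in the endothelia gate of healthy mice. Without a filter on low counts, 4 members were called higher in the endothelia gate at day 2 and 2 at day 10; with sums per plate the counts were 4 and 2, and with DESeq2 4 and 3. Without the replicate block, 1 member was lower in the healthy mesenchyme gate. From day 2 to day 10 in the endothelia gate, 1 member was called lower with sums per plate and 2 with DESeq2. The difference between gates was called higher for 2 members at day 10 with sums per plate, and with DESeq2 for 3 higher and 1 lower at day 10 and 1 higher and 1 lower at day 2. Counts over all genes moved with the setting too, in 164 cases against 184 that stayed the same. The share of all genes called in each setting is not given here, so these counts show nothing particular to the members. The cause of these shifts was not tested. Sums per plate treat plates of 1 number as separate samples.

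Small differences changed sign. Osmr from day 2 to day 10 in the mesenchyme gate was 0.012 with wells of at least 2000 genes and 100000 reads, 0.022 without wells with immune or tubule markers and between −0.19 and 0.17 with a number or plate left out, and Lifr there was between −0.22 and 0.044. The gate difference of Socs3 at day 10 was 0.049 without those wells and between −0.60 and 0.17 with a number left out. Lifr in vascular smooth muscle-like wells at day 2 was 0.14 without them. With a number left out, endothelial Il6st at day 10 ranged from −0.44 to 0.14, Socs3 from day 2 to day 10 from −0.41 to 0.15, and Socs3 in pericyte-like wells at day 2 from −0.23 to 0.79. Il6st in glomerular endothelial-like wells was −0.0052 with DESeq2's size factors and −0.23 to 0.19 with a number left out, and the class difference of Stat3 was 0.041 without the replicate block and −0.60 to 0.35 with a number left out. Depth limits Il6, Lif, Osm and Il11, which rest on few wells.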

Other observations

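Cntfr, the ciliary neurotrophic factor receptor gene, was singled out after its values were seen. Its endothelial sums spanned 1.37 to 8.36 CPM in healthy mice, 20.3 to 39.0 CPM at day 2 and 6.70 to 15.97 CPM at day 10, so that day 2 stood above both other groups without overlap. Il11ra1, the interleukin-11 receptor gene, spanned 37.9 to 99.3 CPM in healthy mesenchymal sums, 34.7 to 65.8 CPM at day 2 and 29.5 to 59.2 CPM at day 10, with overlap, while its ligand gene Il11 appeared. Il6ra, which encodes the IL-6 binding chain, spanned 12.2 to 17.2, 15.2 to 45.5 and 11.96 to 36.5 CPM in the mesenchyme gate and 0.189 to 14.8 CPM over all endothelial sums.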
